A study of Homo sapiens with 3 samples.

Results

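The collagen chain genes encode the subunits of the collagens, the main structural proteins of the extracellular matrix. They were followed in U2OS, an established human osteosarcoma cell line, on the 3 arrays of the study. Members were all probe sets that the platform annotation maps to exactly 1 gene symbol made of COL, digits, A and digits. The rule found 112 probe sets of 43 genes, out of 19775 genes with such a probe set in the series. A filter on dim signal, set at 37.0 on the average (log2) of the 3 arrays, was passed by 50 of these probe sets and by 24 of the 43 genes, and these 24 are called measured below.

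The cells carried a retroviral construct in every group and were harvested 5 days after transduction. The stable Set8b group received Set8_deltaPIP2, also spelled Set8b_deltaPIP2 in the labels, a form that resists destruction by the CRL4-Cdt2 ubiquitin ligase. The wild-type Set8b group received the degradable enzyme, and the vector group received pMSCV with no insert. Set8 monomethylates histone H4 at lysine 20. Each group had 1 array, so there is no spread between replicates, no p-value is given, and every difference is a value for 2 arrays.

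Collagen chains wind around each other into a triple helix, and the chains in 1 molecule can come from 1, 2 or 3 genes. Fibrillar collagens form the banded fibres of bone, skin and tendon. Type IV collagens form the sheet of the basement membrane, and type VI collagens form beaded filaments around cells. FACIT collagens (fibril-associated collagens with interrupted triple helices) sit on the surface of fibrils. Osteoblasts, the lineage from which osteosarcoma cells are thought to come, make mostly type I collagen.

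The median deposited intensity was 38.6 to 42.8 across the arrays. Of 10 mesenchymal and osteoblast markers, 6 were measured, and their summed signal was 21563 on the vector array, 19465 on the wild-type and 23603 on the stable Set8b array. The bone markers SP7 and IBSP did not pass the filter. Epithelial markers were present too, 5 of 7, among them the keratin genes KRT8 and KRT18, with sums of 8799, 9838 and 10782 in the same order. These sums are carried by the brightest genes. Over vector, single markers past 2-fold with stable Set8b were EPCAM, 2.55-fold lower (431 to 169), and CDH1, CDH11, ALPL and PECAM1, 2.06-, 2.46-, 2.44- and 2.32-fold higher, of which CDH1 (log2 0.65) and ALPL (log2 0.88) fell short of 2-fold with a dim vector side set to 50. Sums over the 2 measured of 6 leukocyte markers were 207, 259.9 and 318, and over the 2 of 5 endothelial markers 153, 190.2 and 231. MYH11, the only muscle marker of 3 that was measured, read 57.1, 47.8 and 33.96. In the same order, the leukocyte marker CD3D read 107, 76.0 and 200, and CD79A read 99.6, 184 and 117. The endothelial marker PECAM1 read 74.9, 122 and 173.5, and VWF read 77.7, 68.4 and 57.2. The other markers of these lists with a probe set, among them PTPRC of leukocytes and CDH5 of endothelium, did not pass the filter. The part of other cell types in the values below was not tested. KMT5A, which encodes Set8, gave 4 probe sets that did not move together between the stable Set8b and vector arrays, at -0.76 to 0.90 (log2). The 4 probe sets lay at 0.18 to 1.23 for wild-type Set8b over vector and at -1.08 to -0.06 for stable over wild-type Set8b. They do not check the labels, because whether they lie inside the transduced sequence was not examined.

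The comparison of stable Set8b with vector asks how a Set8 that escapes degradation alters expression. Among the 24 measured collagen genes, 8 had a signal at least 2-fold higher with stable Set8b, and 2 had a signal at least 2-fold lower. Of all 12631 measured genes, 5.74% were that much higher and 5.12% that much lower. The share of collagens that was higher, 33.3%, lay above this background, and the 8.33% that was lower rests on 2 genes and lay near it. The median collagen log2 difference was 0.55, against a median of -0.003 over all measured genes. By their brightest probe sets 18 collagens lay above 0 and 6 below, small differences included. Of the 18, COL1A1, COL5A2 and COL13A1 also had probe sets past the filter below 0. Of the 6, COL7A1 had one above 0. From a bulk culture, a change in RNA per cell and a change in the share of cells that make it cannot be told apart.

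The higher genes were the fibrillar chains COL5A1, COL5A3, COL11A1 and COL27A1, the basement membrane chains COL4A1 and COL4A5, the beaded filament chain COL6A3 and the transmembrane chain COL13A1. The lower genes were COL3A1 and COL4A4. COL5A3 was called from a vector signal of 29.6, below the signal of 50 under which a reading may be background, and it passed the filter through the Set8b arrays. COL4A4 was called from a stable Set8b signal of 43.3. With the dim side set to 50, the log2 difference of COL5A3 was at least 0.85, short of 2-fold, and COL4A4 was at -1.12 or lower. With all readings under 50 raised to 50, 7 of the 24 collagens were at least 2-fold higher, beside 4.77% of all genes. Without the probe sets ending in _x_at or _s_at, which can also read related transcripts, 5 of 19 collagens were at least 2-fold higher, beside 5.94% of all genes. With no filter 14 of 43 were, beside 10.3%, and among the brightest 25% of probe sets 5 of 14, beside 3.83%. COL4A5, COL5A3 and COL13A1 had only _x_at or _s_at probe sets past the filter, so they could not count among the 5 of 19.

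**Figure D1:**
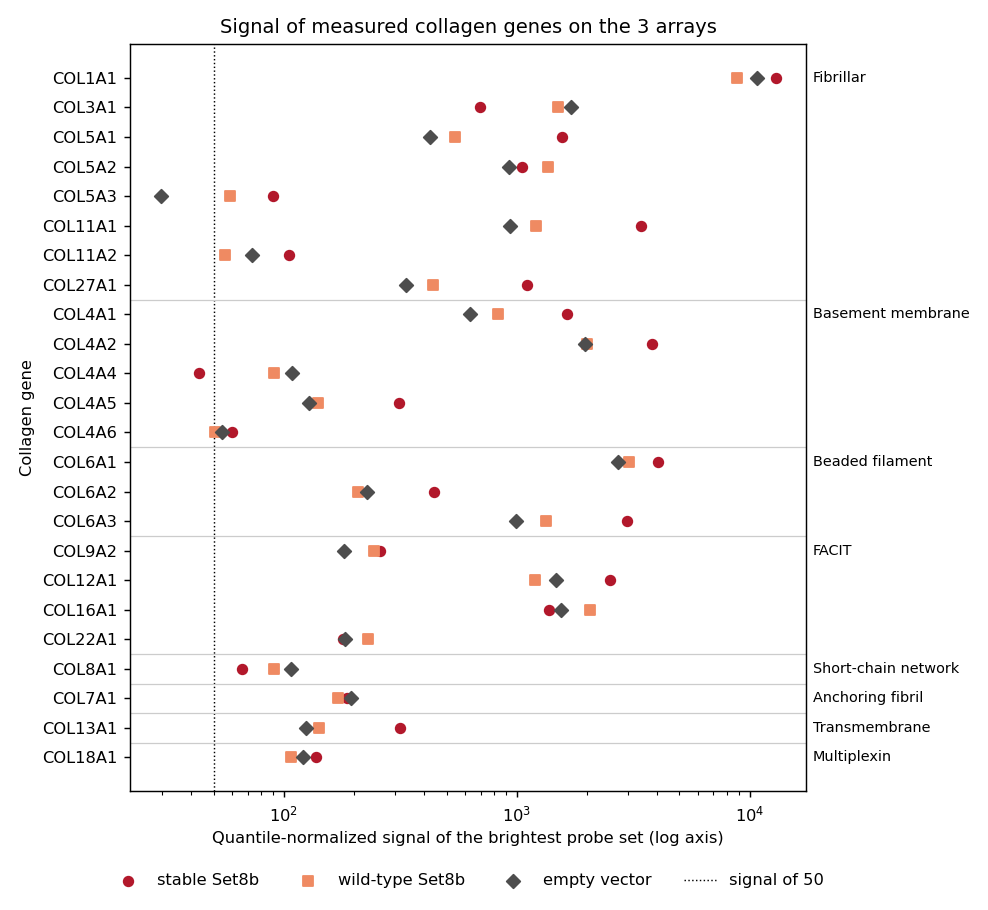
Quantile-normalized signal (log axis) of the brightest probe set of each of the 24 measured collagen genes, by class, with 1 point for each array and no error bars, since each group had 1 array. The stable Set8b points of COL5A1, COL11A1, COL27A1, COL4A1, COL4A5 and COL6A3 lie to the right of both other arrays, and those of COL3A1 and COL4A4 to the left; positions of different genes are not comparable.

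The fibrillar class held 11 genes, of which 8 were measured, with 4 higher by 2-fold or more and 1 lower by 2-fold or more. The shares over all measured genes were 5.74% higher and 5.12% lower. The values of the class ran from -1.29 to 1.88. The bases before the start sites of COL5A1 and COL11A1, which encode chains of the minor fibrillar collagens that set fibril diameter, are shown because these genes had the 2 highest values among the 24 measured. The sequences come from RefSeq (GRCh38.p14), 250 bases upstream of the start, 5′ to 3′ on the strand of the gene. Capitals mark GGGCGG (the GC box), CCAAT and TATAAA on either strand. COL5A1 lies at chr9:134641553-134641802, plus strand, and COL11A1 at chr1:103108523-103108772, minus strand.
COL5A1: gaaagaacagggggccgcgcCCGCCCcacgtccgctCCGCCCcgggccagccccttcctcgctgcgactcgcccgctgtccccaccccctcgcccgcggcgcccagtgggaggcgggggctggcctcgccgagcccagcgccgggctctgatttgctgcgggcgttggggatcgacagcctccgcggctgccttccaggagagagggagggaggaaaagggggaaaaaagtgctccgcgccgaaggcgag
COL11A1: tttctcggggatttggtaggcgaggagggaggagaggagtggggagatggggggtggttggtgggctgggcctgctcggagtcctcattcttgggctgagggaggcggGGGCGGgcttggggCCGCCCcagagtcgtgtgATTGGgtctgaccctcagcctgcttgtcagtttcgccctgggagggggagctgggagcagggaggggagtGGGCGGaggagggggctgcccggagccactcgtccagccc
The COL5A1 stretch held 2 GC boxes and no CCAAT or TATAAA, and the COL11A1 stretch held 3 GC boxes and 1 CCAAT.

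COL5A1, the chain found in nearly all type V collagen, read 424 on the vector array, 541 on the wild-type and 1559 on the stable Set8b array by its brightest probe set. Stable Set8b was thus 3.68-fold above vector. Its 3 probe sets past the filter gave log2 differences of 1.24 to 1.88, all past 2-fold. COL5A2, its partner in the common type V trimer, did not share this difference. It read 927 on the vector array, 1359 on the wild-type and 1057 on the stable Set8b array, so that stable Set8b and vector were 0.19 apart on the log2 scale, and its other probe set was at -0.13. COL5A3, a chain of a rarer type V trimer, read 29.6, 58.6 and 90.1 in the order vector, wild-type, stable.

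COL11A1 read 940 on the vector array, 1215 on the wild-type and 3429 on the stable Set8b array, 3.65-fold above vector. Both of its probe sets past the filter agreed, at 1.83 and 1.87. Type XI collagen is the cartilage counterpart of type V, and COL11A1 chains also join type V chains in other tissues. The partner COL11A2 read 72.8, 56.1 and 105.5 in the order vector, wild-type, stable, a difference of 0.53 over vector. COL27A1, a fibrillar collagen of cartilage, read 334, 436 and 1104 in that order and was 3.30-fold above vector. Its 3 probe sets past the filter lay between 1.41 and 1.79.

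COL3A1, the type III chain of skin and vessel walls, went the other way. It read 1704 on the vector array, 1506 on the wild-type and 696 on the stable Set8b array, 2.45-fold below vector, and its 4 probe sets past the filter lay between -1.63 and -0.60. The probe set at -1.63 was dim on the stable Set8b array and was at -0.87 with that side set to 50. The vector and wild-type arrays were close together for it and the stable Set8b array was low. COL3A1 and COL5A2 are neighbours in the genome, and the values of the neighbour, given above, were not lower by its brightest probe set.

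The type I chains, the main product of bone, gave no difference past 2-fold over vector that could be read. COL1A1 read 10748 on the vector array, 8859 on the wild-type and 12934 on the stable Set8b array by its brightest probe set, a log2 difference of 0.27. Of its 5 probe sets, the brightest 3 lay at 0.27, 0.55 and 0.79. The others lay at -0.89 and -0.58, the last at -0.27 with its dim side set to 50. Because the probe sets disagree, no direction is given for COL1A1. COL1A2, whose chain joins 2 COL1A1 chains in ordinary type I collagen, had no probe set past the filter. Its 3 probe sets read at most 23.0 on the vector array, 19.6 on the wild-type and 27.7 on the stable Set8b array, all below 50. COL1A2 is named with values because of these dim readings, a choice made after they were seen. The remaining fibrillar genes, COL2A1 and COL24A1, did not pass the filter.

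**Figure D2:**
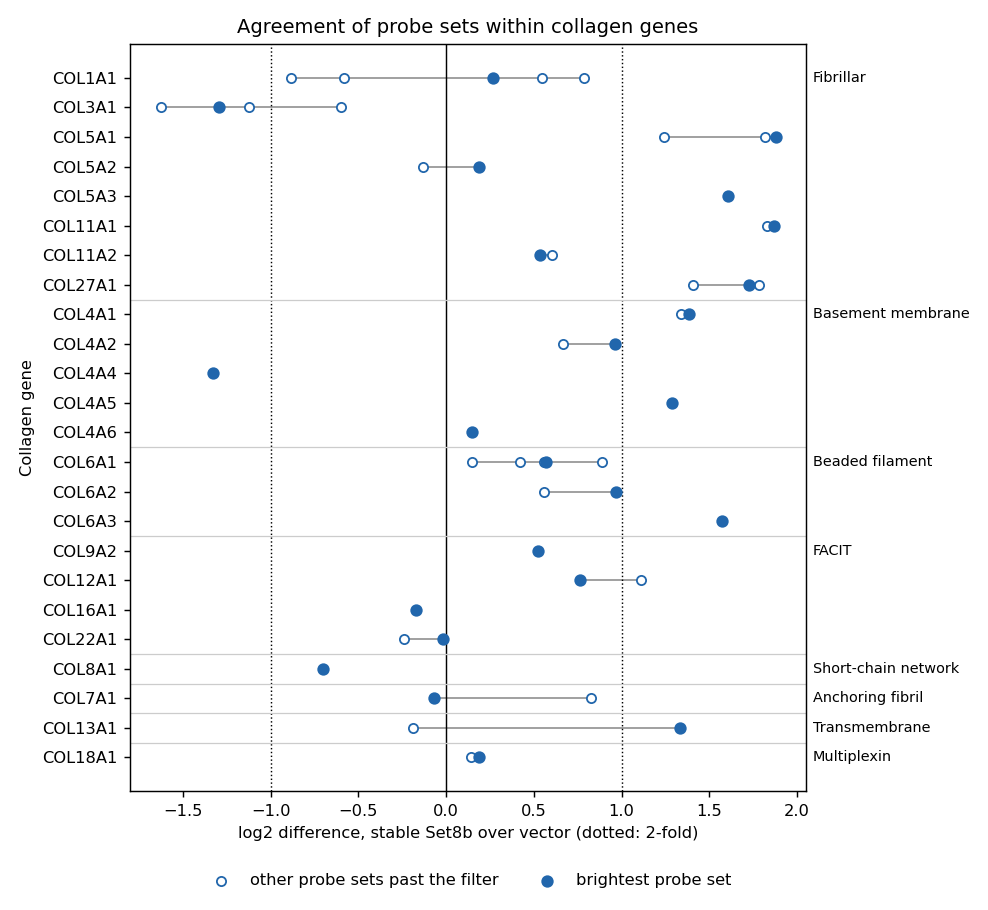
Log2 difference of stable Set8b over vector for every probe set past the filter of the 24 measured collagen genes, with filled points for the brightest probe set of a gene, open points for the others and a grey line for their range. COL5A1, COL11A1, COL27A1 and COL4A1 have all probe sets past 2-fold (dotted lines), while those of COL1A1 run from -0.89 to 0.79 and those of COL13A1 from -0.19 to 1.33.

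The basement membrane class held 6 genes, the 3 head-to-head pairs of type IV chains, and 5 were measured. Of these, 2 were higher by 2-fold or more and 1 lower by 2-fold or more, beside 5.74% and 5.12% of all measured genes. COL4A1 and COL4A2, which together build the type IV network of most tissues, are transcribed away from each other with 126 bases between their start sites. That stretch is shown because both genes start at it and their values differed the same way, and the bases before COL4A5 are shown beside it. The sequences are from RefSeq (GRCh38.p14), with capitals for the same motifs. The first, at chr13:110307158-110307283, is written on the plus strand, so that COL4A2 starts just after its last base and COL4A1 begins at its other end. The COL4A5 stretch is at chrX:108439588-108439837, plus strand.
COL4A1/COL4A2: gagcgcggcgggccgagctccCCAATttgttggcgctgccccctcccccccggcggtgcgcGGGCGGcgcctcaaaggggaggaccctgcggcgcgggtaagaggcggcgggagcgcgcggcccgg
COL4A5: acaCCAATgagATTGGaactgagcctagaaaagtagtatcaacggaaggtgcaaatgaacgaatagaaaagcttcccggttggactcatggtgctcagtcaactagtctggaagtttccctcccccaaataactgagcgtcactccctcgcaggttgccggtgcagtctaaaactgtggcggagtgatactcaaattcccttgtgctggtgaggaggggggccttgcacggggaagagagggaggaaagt
The shared stretch held 1 GC box and 1 CCAAT, and the COL4A5 stretch held 2 CCAAT, on opposite strands, and no GC box.

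COL4A1 read 628 on the vector array, 834 on the wild-type and 1642 on the stable Set8b array, 2.61-fold above vector, with probe sets at 1.34 and 1.39. COL4A2 read 1959, 2012 and 3825 in the same order, a log2 difference of 0.96 that falls just short of 2-fold, with its other probe set at 0.66. For both genes the stable Set8b array was the high one.

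COL4A5, a chain of the kidney and other specialised basement membranes, read 128 on the vector array, 140 on the wild-type and 311 on the stable Set8b array. This was 2.44-fold above vector by its only probe set past the filter, whose name ends in _s_at. COL4A6 starts 379 bases from COL4A5 on the other strand. Its signals stayed between 50.7 and 59.9 on the 3 arrays, near a signal of 50, and differed by 0.15 between stable Set8b and vector. The last pair, COL4A3 and COL4A4, gives further chains of specialised basement membranes. COL4A3 had no probe set past the filter. COL4A4 read 108.5 on the vector array, 90.5 on the wild-type and 43.3 on the stable Set8b array, by 1 probe set, while its other 2 did not pass the filter. Of the 3 head-to-head pairs, both genes were thus well read only for COL4A1 and COL4A2.

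The beaded filament class held 5 genes, of which the 3 chains of ordinary type VI collagen were measured, and all 3 lay above 0. COL6A3 was the only chain past 2-fold over vector, where 5.74% of all measured genes were that much higher. It read 997 on the vector array, 1331 on the wild-type and 2967 on the stable Set8b array, 2.98-fold above vector, by its only probe set. COL6A2 read 227, 208 and 443 in that order, a log2 difference of 0.97, and its other probe set was at 0.56. COL6A1, a neighbour of COL6A2 in the genome, read 2717, 3032 and 4028, a difference of 0.57, with 5 probe sets between 0.15 and 0.89. The 3 chains, which are needed together in 1 molecule, thus had the same sign but differed in size. COL6A5 and COL6A6 did not pass the filter. The stretch upstream of COL6A3, shown because it held none of the motifs searched, lies at chr2:237414165-237414414, minus strand (RefSeq, GRCh38.p14).
COL6A3: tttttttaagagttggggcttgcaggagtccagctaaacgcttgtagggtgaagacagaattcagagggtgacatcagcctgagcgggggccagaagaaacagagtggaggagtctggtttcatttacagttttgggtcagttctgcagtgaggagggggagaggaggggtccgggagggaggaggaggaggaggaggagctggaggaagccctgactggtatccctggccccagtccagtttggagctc

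The FACIT class held 10 genes, of which 4 were measured, and 0 of these were at least 2-fold apart between stable Set8b and vector. Of all measured genes 5.74% were that much higher and 5.12% that much lower, so 0 of 4 says little about the class. COL12A1, which coats type I fibrils, came nearest. It read 1479 on the vector array, 1197 on the wild-type and 2511 on the stable Set8b array, a difference of 0.76, with its other measured probe set at 1.11. COL9A2, a cartilage chain, read 181 on the vector array, 244 on the wild-type and 259.8 on the stable Set8b array, so both Set8b arrays were above vector. COL16A1 read 1546, 2061 and 1373 in the order vector, wild-type, stable, and COL22A1 read 182, 230.5 and 180.0, so for both genes the wild-type array was the high one. The other 6 genes, COL9A1, COL9A3, COL14A1, COL19A1, COL20A1 and COL21A1, did not pass the filter.

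Few genes of the smaller classes were measured. COL13A1, a membrane-spanning collagen of cell contacts, read 125 on the vector array, 142 on the wild-type and 315 on the stable Set8b array, 2.52-fold above vector. Its other probe set past the filter was at -0.19, and with the mean of both in place of the brightest the difference was 0.57, short of 2-fold. COL8A1, a short-chain network collagen of vessels, read 107, 90.8 and 65.9 in the order vector, wild-type, stable, a difference of -0.70. COL7A1, the anchoring fibril of skin, was at -0.07, with its other probe set at 0.83. COL18A1, the precursor of endostatin, was at 0.19, with its other probe set at 0.14. COL8A2, COL10A1, COL15A1, COL23A1, COL25A1, COL26A1 and COL28A1 did not pass the filter. No probe set of the 19 dim collagen genes exceeded a signal of 74.2 on any array.

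The spread between probe sets of the same gene is the only error at hand. For stable Set8b over vector it was an SD of 0.44 log2 over the 16 collagen genes with several probe sets past the filter, and 0.44 over the 5952 such genes of all kinds. For 12 of the 16 collagens all probe sets lay on the same side of 0. The SD says nothing of how cultures vary. The differences of COL5A1, COL11A1, COL27A1, COL5A3, COL6A3 and COL4A1 exceeded 3 times this SD, although COL5A3 has a dim side. In size, those of COL13A1 (1.33), COL4A5 (1.29), COL4A4 (-1.33) and COL3A1 (-1.29) were about 3 times it. Of these, the probe sets of COL13A1 disagree and COL4A4 has a dim side. The differences of COL4A2 and COL6A2 were about 2 times it.

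Against wild-type Set8b, the question is what the form that escapes degradation adds to the degradable enzyme. Here too 8 of the 24 measured collagens were higher by 2-fold or more and 2 were lower by 2-fold or more, against 4.96% and 5.23% of all measured genes. The median collagen difference was 0.58, beside -0.02 over all genes. Both comparisons rest on the 1 array of stable Set8b, so their values are set side by side and are not separate evidence. COL5A1 was 2.88-fold above wild-type Set8b and 3.68-fold above vector, COL11A1 2.82-fold and 3.65-fold, and COL27A1 2.53-fold and 3.30-fold. COL6A3 was 2.23-fold and 2.98-fold above, COL4A5 2.23-fold and 2.44-fold, and COL13A1 2.22-fold and 2.52-fold. The other COL13A1 probe set was at -0.58 over wild-type Set8b. With the mean over probe sets COL13A1 was at 0.28 and COL6A2 at 0.82, and 6 collagens were at least 2-fold higher, beside 4.52% of all genes.

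COL12A1 at 1.07 and COL6A2 at 1.09 were past 2-fold over wild-type Set8b but not over vector, and the other COL6A2 probe set was at 0.56 over wild-type. COL4A1 at 0.98 and COL5A3 at 0.62 were past 2-fold over vector only. COL6A2 lay near the threshold in both comparisons, as did COL12A1 and COL4A1 over wild-type Set8b, and whether any gene differs between the comparisons was not tested. The lower genes were again COL3A1, at -1.11, and COL4A4, at -1.06, the latter at -0.86 with its dim side set to 50. For COL5A1 1 of the 3 probe sets was short of 2-fold here, at 0.61.

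The comparison of wild-type Set8b with vector asks what the degradable enzyme does at the same time point. No collagen gene was at least 2-fold higher or lower, 0 of 24 in each direction, against 1.67% and 1.05% of all measured genes. With so low a background, 0 of 24 says little about the collagens. The values ran from -0.38 for COL11A2 to 0.99 for COL5A3, with a median of 0.14 beside 0.01 over all genes. The other COL11A2 probe set was at 0.32, or 0.06 with its dim vector side set to 50. COL5A3 had its vector side below 50, and with that side at 50 its difference was 0.23. By the brightest probe sets, the wild-type array lay above vector for COL5A2 (0.55), COL9A2 (0.44), COL6A3 (0.42), COL16A1 (0.41) and COL4A1 (0.41). The other COL5A2 probe set was at 0.08. In all, 14 of the 24 collagens lay above 0 by their brightest probe sets and 10 below. Among the 10 were COL12A1 (-0.31), COL4A4 (-0.26) and COL8A1 (-0.24). No direction is given for COL1A1, whose probe sets ran from -1.23 to 0.38, the lowest of them at -0.27 with its dim side set to 50.

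**Figure D3:**
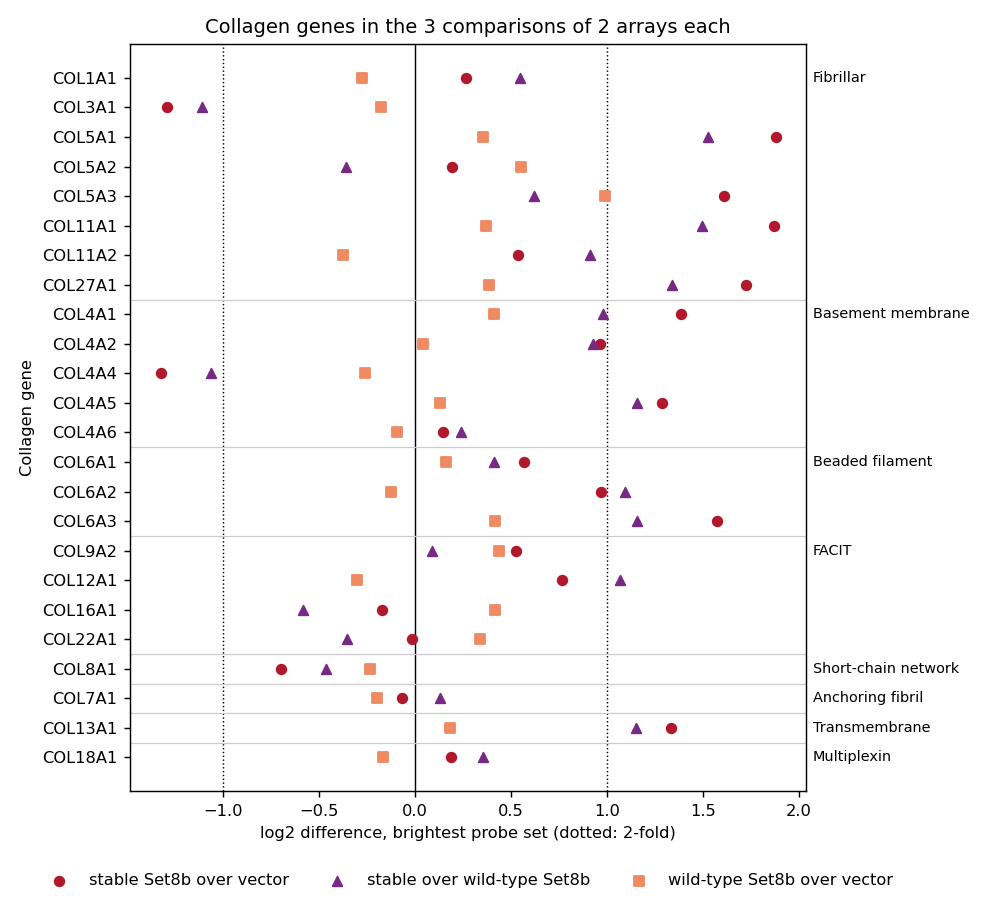
Log2 differences of the 24 measured collagen genes by their brightest probe sets in the 3 comparisons, by class; each point is the difference of 2 arrays, with no error bars, and dotted lines mark 2-fold. The circles and triangles share the stable Set8b array and run together (COL5A1 at 1.88 and 1.53, COL3A1 at -1.29 and -1.11), and the wild-type Set8b squares lie between -0.38 and 0.99.

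The RefSeq promoter table held an upstream stretch for 31 of the 43 collagen genes. Of these 31, 17 had a GC box within 250 bases of the start (54.8%), 7 a CCAAT (22.6%) and 4 a TATAAA (12.9%). Over all 27305 genes in the table the shares were 42.2%, 33.1% and 11.2%. Of the 8 collagens at least 2-fold higher over vector, 5 had a GC box, 4 a CCAAT and 1, COL13A1, a TATAAA. The motifs did not overlap in the stretches printed. The median GC content was 65.2% for these 8, 65.6% for the 31 and 57.6% for all genes. Some starts in the table, such as that of COL27A1, are not the outermost start of the gene.

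A collagen chain needs a long line of other proteins before it becomes a fibre. Of 65 genes listed for this pathway 57 were measured, with 8 higher by at least 2-fold with stable Set8b than with vector and 3 lower by as much, beside the 5.74% and 5.12% of all measured genes. The median was 0.27.

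Among the 22 measured genes of modification, folding and export, 3 were at least 2-fold higher, all only just, and 1 was lower. The shares over all measured genes were 5.74% and 5.12%. P4HA1, a subunit of the enzyme that hydroxylates proline and so steadies the helix, read 387 on the vector array, 417 on the wild-type and 807 on the stable Set8b array, 2.09-fold. P3H1, a prolyl 3-hydroxylase, read 507, 608 and 1017 in that order, 2.01-fold. FKBP10, a collagen chaperone, read 331, 599 and 677, 2.04-fold, so here the wild-type array was high as well. MIA2, a factor for loading large cargo at the endoplasmic reticulum, was called lower from a dim stable Set8b signal of 24.9, against 72.5 with vector, and was at -0.54 with that side set to 50.

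Of the 12 measured genes of propeptide removal and fibril assembly, 3 were at least 2-fold higher, beside 5.74% of all measured genes. FN1, the fibronectin on which collagen is laid down, read 2514, 3787 and 7325 in the order vector, wild-type, stable, 2.91-fold, and its 6 probe sets ranged from 0.45 to 1.71. Of 4 small proteoglycans of fibril surfaces on the list, 2 were past 2-fold, FMOD at 107, 135 and 297 (2.79-fold) and LUM at 373, 616 and 954 (2.56-fold, with its other probe set at 0.91). DCN was at 0.75, or 0.26 with its dim vector side set to 50, and BGN did not pass the filter. ADAMTS2, which cuts the amino propeptide off types I, II and III, was lower, with signals of 105.6, 133 and 44.1, and at -1.08 with the dim side set to 50.

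The 5 crosslinking enzymes of the lysyl oxidase family had 0 genes past 2-fold in any comparison. Of all measured genes at most 5.74% were higher and 5.23% lower in a comparison, so 0 of 5 says little about these enzymes. Over vector they ran from -0.91 for LOXL3 to 0.65 for LOXL4. Of 7 measured receptors, 2 were at least 2-fold higher over vector, beside 5.74% of all measured genes. ITGA2, the alpha subunit of a collagen-binding integrin, read 148, 134 and 448, 3.02-fold, and MRC2, which takes up collagen fragments, read 1737, 2503 and 3914, 2.25-fold. Of 11 regulators 1 was past 2-fold, SP1, a factor that binds GC boxes, and it was lower, beside 5.12% of all measured genes. SP1 read 1460 on the vector array, 1509 on the wild-type and 715 on the stable Set8b array. The log2 difference was -1.03, and -0.94 by its other probe set. The regulators had a median of -0.09.

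**Figure D4:**
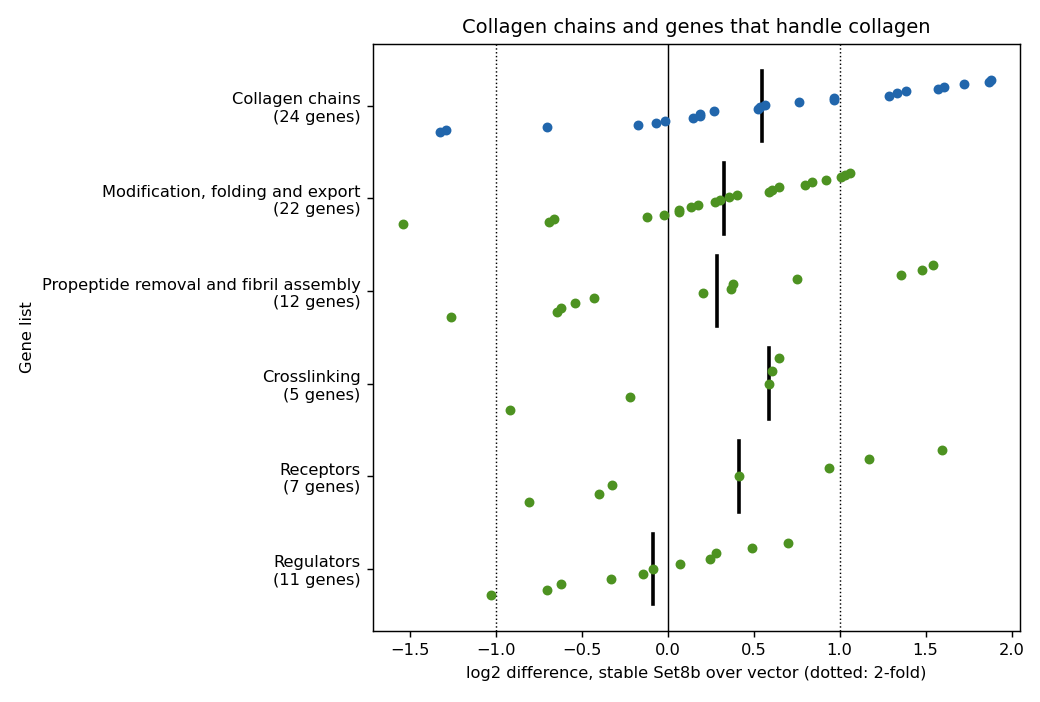
Log2 difference of stable Set8b over vector for the measured collagen chains (24 genes) and for 5 lists of genes that handle collagen; each point is a gene by its brightest probe set, spread vertically only for visibility, and black bars are medians. The median is 0.55 for the chains, 0.33 for modification, folding and export and -0.09 for the regulators.

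Over wild-type Set8b, 5 of the 57 pathway genes were higher by at least 2-fold and 5 lower by as much, beside 4.96% and 5.23% of all measured genes. ITGA2 at 1.74 and FMOD at 1.14 were higher here as well. PLOD2, a lysyl hydroxylase that alters crosslinks, was at 1.15. SEC24D was at 2.25, or 1.40 with a dim wild-type signal of 27.7 set to 50. GP6 read 164 with stable Set8b, 53.97 with wild-type and 206 with vector. The lower ones were SP1, ADAMTS2, MIA2, TNXB and ADGRG1. With stable Set8b readings under 50 raised to 50, ADAMTS2 was at -1.42, while MIA2 (-0.10) and TNXB (-0.11) were no longer past 2-fold. PLOD2, SEC24D, GP6, TNXB and ADGRG1 are named after their values were seen. For wild-type Set8b over vector 0 pathway genes were higher and 2 lower, beside 1.67% and 1.05% of all measured genes. The lower ones were GP6 and SEC24D, the latter at -0.61 with its dim side set to 50.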

How the data were processed

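Biotin-labelled total RNA of U2OS cells was read on Affymetrix arrays, per the labels' protocols, with 1 array for each of the 3 constructs. What the authors deposited is a linear intensity for each probe set, scaled so that every array has a 2% trimmed mean of 250.0. The sources used here do not name the software, and no detection calls were used.

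Python 3.11.15, numpy 2.4.6, pandas 2.3.3 and matplotlib 3.10.9 were used. All 54675 probe sets were quantile normalized, given a floor of 7.7 (percentile 20) and taken to log2, and 62 control probe sets were left out. Probe sets were kept where their mean log2 over the arrays reached the median of all (a signal of 37.0), which uses every array but can keep a gene that is bright on 1 array only. The brightest kept probe set stood for its gene, and others are given as a range. Genes were named only from the 41091 probe sets with 1 symbol. The annotation is old, and all 112 collagen probe sets matched the RefSeq table by Entrez identifier under the same symbol. Quantile normalization removes any overall shift between arrays.

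With 1 array per group no test was possible, so genes were counted at a 2-fold difference and set beside the same count over all measured genes. Where a called difference had a side below 50 it is also given with that side at 50, a bound that does not cover noise. Every measured collagen gene was to be described, with the signals of those past 2-fold, their partners and neighbours, and from the pathway lists at most 12 genes past 2-fold over vector. The members, lists, thresholds and rules were chosen with earlier results of these data known. The steps were tested on simulated data. The alternatives tried were the deposited scale, centring each array on its median, no floor or a floor at 50, no filter or only the brightest 25% of probe sets, averaging the probe sets of a gene, dropping those named _x_at or _s_at, thresholds of 1.5-fold and 3-fold and, added after the data were seen, a filter at the median of probe sets with 1 symbol (a signal of 51.4).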

Additional observations from a re-analysis of the deposited data

How the results depend on the processing

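No paired analysis was possible because each group had 1 array. With 1 array per group no replicate could be left out, and the number of arrays and the lack of detection calls limit every value. Of 603 values of single collagen genes under the alternatives, 593 moved by less than the SD between probe sets, 10 moved by more, and 0 of the genes past 2-fold changed sign. Many of these values could not move. Alternatives that change only the filter keep the brightest probe set of a gene, and a changed floor leaves bright genes as they are. The count of 593 is therefore no measure of how robust the values are. The median collagen difference also moved by less than the SD between probe sets under every alternative at 2-fold. That SD does not measure how a median over genes varies. For stable over wild-type Set8b the median went from 0.58 to 0.35 with the mean over probe sets. It went to 0.28 without _x_at and _s_at probe sets, beside -0.01 over all genes in both settings. COL5A1, COL11A1, COL27A1, COL4A1, COL4A5, COL6A3, COL3A1 and COL4A4 stayed past 2-fold over vector under each alternative that kept them. Changes of the filter alone could not alter their values. Without _x_at and _s_at probe sets COL3A1 rested on its probe set at -1.63 alone. That probe set was dim on the stable Set8b array, at 29.6, and was at -0.87 with that side set to 50. COL4A5 was not kept without _x_at and _s_at probe sets, nor among the brightest 25%. The cause of the following changes was not tested. Of collagens at least 2-fold higher over vector, 14 of 43 were counted with no filter, 5 of 14 among the brightest 25% of probe sets, 5 of 19 without _x_at and _s_at probe sets and 4 at 3-fold, beside 10.3%, 3.83%, 5.94% and 1.92% of all genes. Lower were 1 of 14 among the brightest 25% and 0 at 3-fold, beside 3.9% and 1.2%. For stable over wild-type Set8b, 5 were higher without _x_at and _s_at probe sets and 0 at 3-fold, beside 5.56% and 1.59%. There 5 were lower with no filter, 1 with a floor at 50, 1 among the brightest 25% and 0 at 3-fold, beside 9.55%, 4.09%, 3.75% and 1.31%. For wild-type Set8b over vector, 1 was higher with values as deposited, 1 at 1.5-fold and 6 with no filter, where 3 were lower, beside 2.1%, 6.63%, 7.39% and, for lower, 6.65% of all genes. Without _x_at and _s_at probe sets, COL5A1 was at 1.24 over vector and 0.61 over wild-type. Centring on medians brought the median of all genes to -0.11 for stable Set8b over vector and to -0.13 for wild-type Set8b over vector, and the collagen medians to 0.46 and 0.001. For wild-type Set8b over vector the shares of all genes higher and lower were 1.67% and 1.05%, 2.1% and 0.808% as deposited, and 1.4% and 1.47% centred.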

Other observations

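Proteins outside the collagen family also carry short collagen-like triple helices. Of 28 such genes, listed after the collagen values were seen, 8 were measured, and over vector 3 were at least 2-fold higher with stable Set8b and 2 at least 2-fold lower, beside 5.74% and 5.12% of all measured genes. MARCO, a scavenger receptor of macrophages, read 88.7 on the vector array, 121 on the wild-type and 280.1 on the stable Set8b array. CTHRC1, a secreted protein of remodelling matrix, read 35.2, 45.6 and 81.3 in that order, and C1QTNF1, of the C1q and tumour necrosis factor family, read 27.1, 14.9 and 133. The vector signals of CTHRC1 and C1QTNF1 were below 50, and with that side set to 50 CTHRC1 was at 0.70, short of 2-fold, and C1QTNF1 at 1.41. C1QTNF1 passed the filter only through the stable Set8b array, where it was high, so nothing is read from the count against the background. C1QTNF2 of the same family was lower, at 522 on the vector array, 401 on the wild-type and 118 on the stable Set8b array. SCARA3, a scavenger receptor, read 460 on the vector array, 342 on the wild-type and 164 on the stable Set8b array by its brightest probe set, and its 3 probe sets lay between -2.52 and -0.79. The median of the 8 genes was 0.12.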
